A study of Mus musculus with 2 samples.

Results

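Genes of antigen presentation and of the interferon response were read in mouse mammary tumors arising under GW9662, an irreversible antagonist of the nuclear receptor PPARγ, and under a control diet. The 48 genes were listed by role and comprised 5 MHC class I chains, 8 genes of class I peptide supply and loading, 9 class II genes, 5 interferon transcription factors, 16 interferon-stimulated effectors and 5 interferon-inducible GTPases. Each was matched by its current or an older symbol to probe sets annotated to that gene alone, groups of short oligonucleotides that read part of a transcript. A probe set of its own was found for 42 of the 48, among 12393 genes on the array with such a probe set.

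Tumors were induced in female wild-type FVB littermates, 5 weeks old at the start, with 15 mg of the long-acting progestin medroxyprogesterone acetate under the skin and then 4 weekly doses by gavage of 1 mg DMBA, a polycyclic carcinogen. The GW9662 group ate chow with 0.1% GW9662 starting the day after the final DMBA dose, and the control group stayed on standard chow. RNA pooled from 5 mice was hybridized to 1 Affymetrix mouse expression array per diet. Since each diet has 1 pooled array, no difference has a replicate check or a p-value, and variation between mice, between tumors and between arrays cannot be told apart.

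MHC class I molecules show peptides from inside the cell to cytotoxic T cells, and the peptides are cut by the proteasome and carried into the endoplasmic reticulum by the Tap transporter. MHC class II molecules show peptides from endosomes to helper T cells and are made mainly by dendritic cells, macrophages and B cells. Interferons bind receptors that signal through Janus kinases and Stat proteins to genes with an interferon-stimulated response element (ISRE) or a gamma-activated site (GAS), and interferon gamma also raises class I and class II genes.

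Promoter sequences are shown for the GTPases, which had the lowest median ratio of the 6 roles, and for genes set against them. In RefSeq windows from 250 bases before to 50 after each start site (GRCm38.p6), 41 of the 48 genes were matched, with 49 windows. The ISRE core, GAAA then any 2 bases then GAAA again, searched on both strands, was in windows of 17 of these 41 genes and in 3.44% of all 32851 windows. All 4 GTPases with a window carried it. The 160 bases before their start sites follow, with ISRE letters in capitals, for Gbp2 (chr3:142620503-142620662, plus strand), Gbp3 (chr3:142559884-142560043, plus strand, 1 of 2 windows), Igtp (chr11:58199396-58199555, plus strand) and Irgm1 (chr11:48871421-48871580, minus strand).
Gbp2: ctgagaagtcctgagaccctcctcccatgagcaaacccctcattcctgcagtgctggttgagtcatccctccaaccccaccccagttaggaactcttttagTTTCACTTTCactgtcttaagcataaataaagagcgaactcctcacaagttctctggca
Gbp3: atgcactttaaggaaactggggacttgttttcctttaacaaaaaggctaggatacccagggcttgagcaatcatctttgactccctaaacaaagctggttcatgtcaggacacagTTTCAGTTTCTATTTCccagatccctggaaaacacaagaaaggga
Igtp: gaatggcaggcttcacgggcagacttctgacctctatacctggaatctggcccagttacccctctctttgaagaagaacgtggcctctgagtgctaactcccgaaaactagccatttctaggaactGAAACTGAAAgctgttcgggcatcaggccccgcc
Irgm1: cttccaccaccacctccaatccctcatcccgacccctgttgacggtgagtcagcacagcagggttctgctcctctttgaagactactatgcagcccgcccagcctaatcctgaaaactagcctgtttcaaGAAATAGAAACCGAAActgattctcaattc

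The same letters stood before genes whose signals were slightly higher on the GW9662 array. The stretches are from B2m (chr2:122147527-122147686, plus strand), Ifitm2 (chr7:140955962-140956121, minus strand) and Bst2 (chr8:71537473-71537632, minus strand), again with the ISRE in capitals.
B2m: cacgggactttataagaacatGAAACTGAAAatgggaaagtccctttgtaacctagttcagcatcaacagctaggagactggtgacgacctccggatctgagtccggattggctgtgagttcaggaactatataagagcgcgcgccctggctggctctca
Ifitm2: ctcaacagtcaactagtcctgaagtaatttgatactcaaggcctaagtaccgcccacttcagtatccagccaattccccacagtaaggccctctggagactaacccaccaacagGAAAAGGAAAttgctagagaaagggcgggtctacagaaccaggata
Bst2: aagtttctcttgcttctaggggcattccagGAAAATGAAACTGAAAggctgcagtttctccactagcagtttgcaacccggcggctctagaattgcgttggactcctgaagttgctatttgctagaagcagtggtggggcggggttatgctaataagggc

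Of the 17 genes with an ISRE match, 12 had a mean signal of at least 100, and of these 7 were lower and 5 higher on the GW9662 array. Their log2 ratios ran from -0.81 to 0.15 around a median of -0.29. Of all 8009 genes with such a signal, 47.1% were lower. By role the ISRE was matched in 2 of 5 class I chains, 1 of 7 peptide supply genes, 1 of 6 class II genes, 1 of 5 interferon factors and 8 of 14 effectors with a window. A match is a run of letters and not a measured binding site.

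The other motifs were the GAS core TTCNNNGAA, in 8 of the 41 genes and 8.3% of all windows, and the Y box CTGATTGG of MHC promoters, in 10 of the 41 genes and 4.1% of all windows, both searched on both strands. The Y box was matched in 4 of 5 class I chains, 2 of 7 peptide supply genes, 3 of 6 class II genes and 1 of 5 interferon factors (Irf8). The 2 peptide supply genes, Tap1 and Psmb9, share the same match, which lies between them. The capitals mark the GAS of Irf1 (chr11:53769854-53770013, plus strand, 1 of 2 windows) and the Y box of H2-Aa (chr17:34287824-34287983, minus strand), H2-Eb1 (chr17:34305707-34305866, plus strand) and the 225 bases between the divergent genes Tap1 and Psmb9 (chr17:34187331-34187555, plus strand).
Irf1: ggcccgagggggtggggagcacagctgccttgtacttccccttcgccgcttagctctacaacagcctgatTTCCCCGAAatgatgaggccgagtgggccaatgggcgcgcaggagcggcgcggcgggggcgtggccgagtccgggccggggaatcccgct
H2-Aa: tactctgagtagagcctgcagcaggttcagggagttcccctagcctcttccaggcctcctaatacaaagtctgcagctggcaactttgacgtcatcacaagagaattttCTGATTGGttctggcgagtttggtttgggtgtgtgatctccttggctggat
H2-Eb1: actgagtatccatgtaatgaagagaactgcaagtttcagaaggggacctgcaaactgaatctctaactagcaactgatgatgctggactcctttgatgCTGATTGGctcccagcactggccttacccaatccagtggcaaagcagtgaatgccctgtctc
Tap1 and Psmb9: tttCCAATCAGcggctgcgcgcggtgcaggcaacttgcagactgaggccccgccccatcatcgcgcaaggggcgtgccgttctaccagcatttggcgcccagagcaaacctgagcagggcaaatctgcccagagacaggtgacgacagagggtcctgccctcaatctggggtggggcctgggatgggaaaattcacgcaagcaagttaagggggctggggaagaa
The reference is C57BL/6J, whereas FVB mice carry another haplotype of the polymorphic MHC, and how well each MHC probe set matches the FVB allele was not analysed here.

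The signals are linear intensities in arbitrary units, and each gene was read at its probe set of highest mean signal. Their 2% trimmed mean was 500.2 on both arrays. Olfactory receptor probe sets, a stand-in for background, had a median signal of 5.6 on the GW9662 array and 9.1 on the control array, with a highest value of 25.8. Probe sets of the same gene had log2 ratios that differed with an SD of 0.36 over 2639 genes, which is a spread of reading and holds no variation between mice. The 9 mammary epithelial markers were all measured, among them the keratins Krt8 at 9665 on the GW9662 array and 9496 on the control array and Krt18 at 9025 and 10018. The basal keratins Krt5 and Krt14 were 1.58-fold and 1.65-fold lower. Krt5 had 793 on the GW9662 array and 1256 on the control array, and Krt14 had 619.5 and 1022. Krt17, another keratin of the list, was slightly higher at 583.8 and 532. Krt5, Krt14 and Krt17 were named after their values were seen.

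Antigen presentation and interferon genes lay mostly a little lower on the GW9662 array, and none reached the study's size for a difference. Of 36 members with a mean signal of at least 100, 28 were lower and 8 higher, a share lower of 77.8% against 47.1% of all 8009 genes at that level. Their median log2 ratio of GW9662 over control was -0.32 (range -0.97 to 0.15), against 0.03 over all those genes. Of the 36, 21 lay below the lower quartile of all ratios (-0.25) and 0 above the upper quartile (0.28). The same side was seen by probe set, with 40 of 49 member probe sets lower (81.6%) against 49.5% of 11827. The members were chosen with earlier results of these data known, so these shares describe the list and are no independent support. Among further interferon-stimulated and presentation genes outside the list, 54.5% and 52.6% of those measured were lower. In bulk tumor RNA, fewer cells of a type and less RNA per cell cannot be told apart.

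By size, 31 members reached a signal of 300 on either array. At 3-fold, the threshold of the study's methods, 0 of the 31 were lower and 0 higher, against 2.68% of 6053 genes lower and 0.215% higher. At 2-fold the counts were again 0 and 0, against 4.68% lower and 1.02% higher. At 1.5-fold, 6 members were lower, Gbp2, Gbp3, Igtp, Irf1, Lgals3bp and Iigp1, and 0 were higher, against 9.8% and 6.41% of all genes. The 1.5-fold size was added after the data were seen. Of the 31, 6 reached 300 through the control array alone (Gbp3, Ifih1, Irf8, Irgm1, Tap1 and Usp18) and 0 through the GW9662 array alone. With 300 required on both arrays, a setting also added after the data were seen, 5 of 25 members were at least 1.5-fold lower and 0 higher, against 6.14% and 5.14% of 5295 genes. Ratios lay beyond the spread between probe sets of a gene in 15 of the 36 members, all lower, against 18.4% of all genes lower and 18.2% higher.

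**Figure D1:**
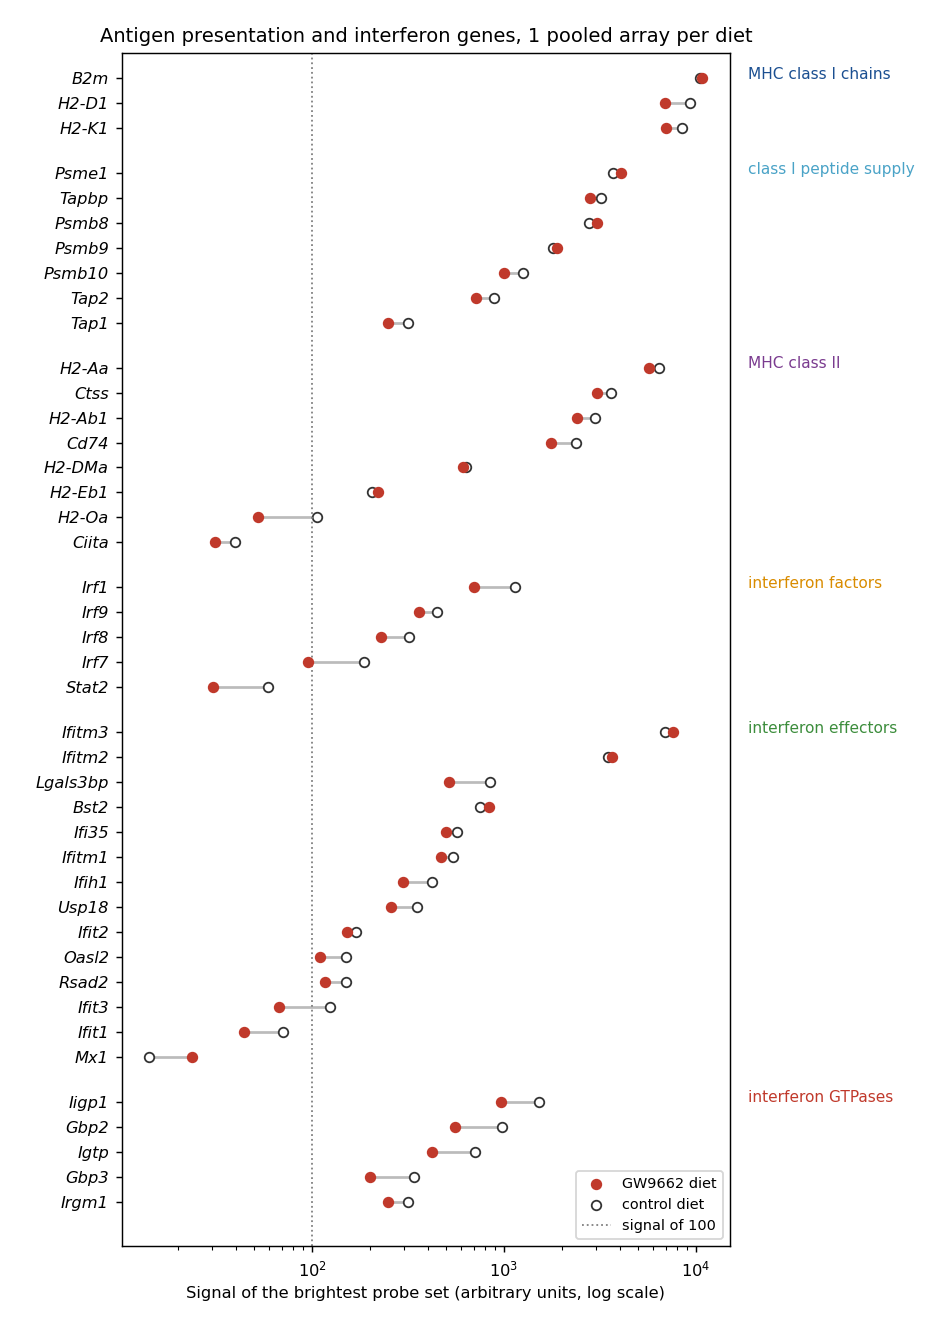
Signal of the 42 members with a probe set of their own on the GW9662 array (red) and the control array (open circles), in arbitrary units on a log scale, by role, with no error bars since each diet has 1 pooled array. Of the 36 genes with a mean signal of at least 100, 28 lie lower on the GW9662 array.

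The 2 classical class I heavy chains were lower and the light chain was level. H2-K1, a heavy chain that holds the peptide, had a signal of 7022 on the GW9662 array and 8498 on the control array, 1.21-fold lower. H2-D1, the other heavy chain, had 6937 and 9291, 1.34-fold lower (log2 ratio -0.42). B2m, the light chain that pairs with every class I heavy chain, had 10813 and 10475, a log2 ratio of 0.05 that turned to the other side with its second probe set at 8569 and 8921.5 (log2 ratio -0.06).

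The heavy chains could be read at several places. All 4 probe sets of H2-K1 and the 4 of H2-D1 with a mean signal of at least 100 were lower on the GW9662 array, with log2 ratios from -0.84 to -0.28 and a median of -0.43. The largest gap for H2-K1 was at a probe set with 2155 on the GW9662 array and 3866 on the control array, and its other probe sets had 6414 and 7939.9, and 131 and 228. H2-D1 had 6604 on the GW9662 array against 8450.3 on the control array, 3148 against 4259, and 907 against 1226 at its other bright probe sets. Class I genes are near-identical copies, and 4 of 4 H2-K1 and 7 of 9 H2-D1 probe sets are of the type that can read related transcripts, so these values may hold signal from other class I genes. A further 5 probe sets of H2-D1 were dim, with signals between 1.7 and 114.0.

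Among the proteasome genes of peptide supply, Psmb10 was lower and the others were slightly higher on the GW9662 array. Psmb8, a catalytic subunit of the immunoproteasome, had a signal of 3046 on the GW9662 array and 2757 on the control array (log2 ratio 0.14). Psmb9, a second catalytic subunit, had 1885 and 1801 (0.07). Psmb10, the remaining one, had 994.8 and 1251.5 (-0.33). The cap subunit Psme1, which opens the proteasome, had 4083 and 3684 (0.15). These 4 ratios all lie within the 0.36 spread between probe sets.

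The 3 measured transport and loading genes were lower, by amounts like that of Psmb10 or smaller. Tap1, a subunit of the peptide transporter, had 248 on the GW9662 array and 318 on the control array (log2 ratio -0.36), and its other 3 probe sets were at 6.5 or less. Tap2, its partner, had 714 and 891 (-0.32). Tapbp, or tapasin, which tethers class I molecules to the transporter, had 2795 and 3189 (-0.19), with a dim probe set at 87.1 and 156. Across the role 4 of 7 members were lower (57.1%), with a median of -0.19. That share was near the 47.1% of all measured genes.

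The constitutive proteasome subunits stood slightly higher. All 14 of the 14 listed were higher on the GW9662 array, with log2 ratios from 0.10 to 0.40 and a median of 0.29, and the same 14 were higher after centring or quantile normalization. Psmb5, which Psmb8 replaces, had 3837 on the GW9662 array and 2950.2 on the control array. Psmb6, which Psmb9 replaces, had 4071 and 3093. Psmb7, which Psmb10 replaces, had 1205 and 998. None of the 14 was past 1.5-fold.

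**Figure D2:**
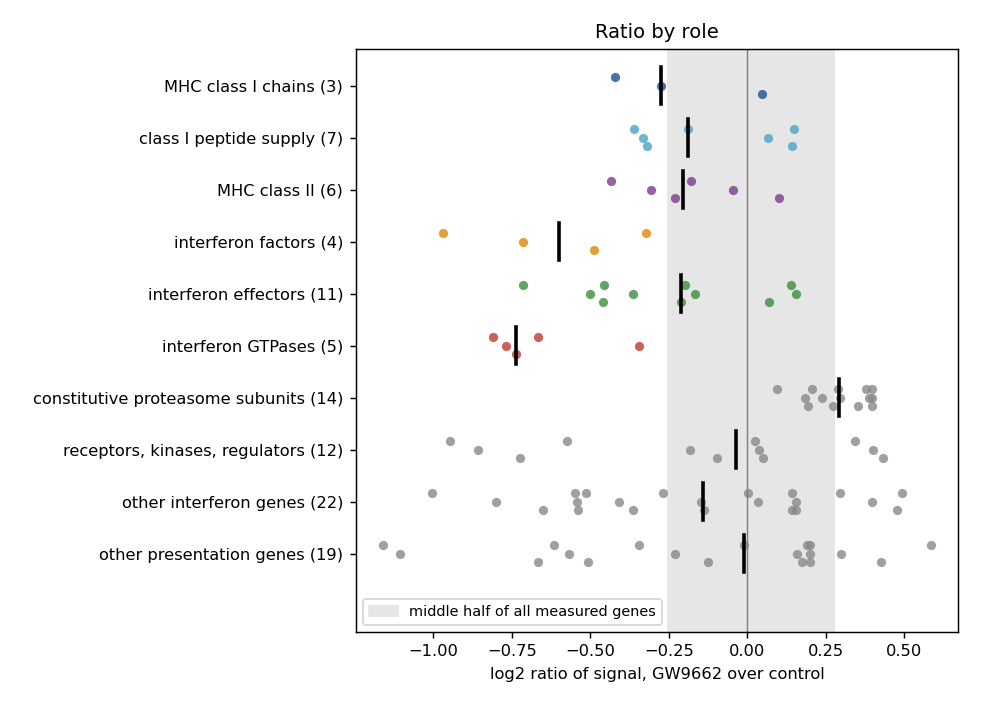
Log2 ratio of GW9662 over control for each measured gene (points), by role, with the median of each role (black bars) and the range between the quartiles of all measured genes, -0.25 to 0.28 (grey band). The interferon factors and GTPases lie left of the band, and the constitutive proteasome subunits lie right of zero.

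Class II genes were mostly lower by small amounts. H2-Aa, the alpha chain of I-A, had a signal of 5689 on the GW9662 array and 6444 on the control array (log2 ratio -0.18), and 4108 and 4037 at a second probe set. H2-Ab1, its beta chain, had 2401 and 2967 (-0.31), with 1714 and 2146, and 1764 and 2019, at the others. H2-Eb1, the beta chain of I-E, had 221 and 206 (0.10). The chains thus lay within the spread of reading.

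Among the helpers of class II, Cd74 had the lowest ratio of the measured genes. Cd74, the invariant chain that guards the peptide groove, had 1751 on the GW9662 array and 2366 on the control array, 1.35-fold lower (log2 ratio -0.43). Ctss, cathepsin S, which cuts the invariant chain, had 3061 and 3592 (-0.23). H2-DMa, a chain of the peptide exchange factor DM, had 610.2 and 630.4 (-0.05), a sign that turned under quantile normalization. Signals of H2-Oa, a chain of the DM inhibitor, were 52.5 and 106.5, at least 1.07-fold lower, and Ciita, the switch for class II transcription, stayed below 100 on both arrays at 31.3 and 39.5. Of 6 measured members 5 were lower, against 47.1% of all measured genes, with a median of -0.21.

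The interferon factors were lower at each measured gene. Irf1, a factor induced by interferon gamma, had a signal of 698.5 on the GW9662 array and 1146 on the control array, 1.64-fold lower (log2 ratio -0.71). Irf7, which drives type I interferon genes, had 95 and 186, at least 1.86-fold lower. Irf8, a factor of myeloid and B cells, had 229 and 321, 1.40-fold lower, with a second probe set at 67.1 and 118. Irf9, which binds the ISRE together with Stat2, had 359 and 449, 1.25-fold lower. Stat2 stayed below 100 at both probe sets, with 30.5 and 58.7 at the brighter. The median over the 4 measured factors was -0.60, and 3 of them lay beyond the 0.36 spread.

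The receptors that stand above these factors had lower signals as well. Ifngr1 and Ifngr2, the receptor chains for interferon gamma, had 663 and 247 on the GW9662 array against 1096 and 448 on the control array, 1.65-fold and 1.81-fold lower. Ifnar1 and Ifnar2, the chains for type I interferon, had 349 and 736 on the GW9662 array against 396 and 1097 on the control array, 1.13-fold and 1.49-fold lower. Over 12 measured of 14 listed receptors, kinases and negative regulators, 6 were lower and 6 higher, with a median of -0.04. Of 7 listed interferon ligands, 5 had a probe set of their own, and these were near background. Of these 5, 0 were measured, with Ifnb1 at 14.2 and 9.5, and Ifng at 7.4 and 1.8.

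Effectors of the response were divided. Lgals3bp, a secreted glycoprotein, had the largest gap, with a signal of 518 on the GW9662 array and 849.8 on the control array, 1.64-fold lower (log2 ratio -0.71). Ifih1, the RNA sensor MDA5, had 297.5 and 421.5, 1.42-fold lower. Usp18, which takes Isg15 off proteins and damps the type I receptor, had 257 and 353, 1.37-fold lower. Oasl2, a relative of the oligoadenylate synthetases, had 109.6 and 151 (-0.46). Rsad2, viperin, had 116.5 and 150.1 (-0.37), with its other probe sets below 100.

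The other 6 measured effectors were within the spread of reading. Ifit2, which binds viral RNA, had 151 on the GW9662 array and 169.6 on the control array (log2 ratio -0.17), and Ifi35 had 497 and 571 (-0.20). Ifitm1, a membrane protein that hinders virus entry, had 468 and 541 (-0.21), whereas its relatives Ifitm2 and Ifitm3 were higher, Ifitm2 with 3656 and 3483 (0.07) and Ifitm3 with 7623 and 6923 (0.14). Bst2, tetherin, which holds budding viruses at the surface, had 836 and 751 (0.15). The effectors with a mean signal under 100 had wider ratios. Ifit3 had 67.3 on the GW9662 array and 123.9 on the control array, at least 1.24-fold lower (log2 ratio -0.88). Below 100 on both arrays were Ifit1 with 44.2 and 71.0 (-0.68) and Mx1, an antiviral GTPase, with 23.7 and 14.2 (0.74). Of 11 measured effectors 8 were lower, against 47.1% of all measured genes, with a median of -0.21.

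The GTPases were lower at all 5 genes, the one role with every member measured and lower. Mx1, also a GTPase, was listed with the effectors and stayed below 100 on both arrays. Gbp2, a guanylate-binding protein that acts on vacuoles of intracellular microbes, had a signal of 557 on the GW9662 array and 976 on the control array, 1.75-fold lower (log2 ratio -0.81). A second probe set of Gbp2, of similar mean signal, had 665 and 854.5, 1.29-fold lower (-0.36). Gbp3, its neighbor, had 199.6 and 339.8, 1.70-fold lower. Igtp, an immunity-related GTPase, had 424 and 706.5, 1.67-fold lower. Iigp1, another, had 963 and 1529, 1.59-fold lower, with 526 and 614 at a second probe set (-0.22). Irgm1, which regulates the others, had 249 and 316, 1.27-fold lower. Their median was -0.74, and over all 7 probe sets the ratios ran from -0.81 to -0.22. Among all measured genes, 6.48% had a lower ratio than Gbp2, 7.02% than Gbp3, 7.54% than Igtp, 8.78% than Iigp1 and 19.3% than Irgm1. These ranks use the brightest probe set, and the second probe sets of Gbp2 and Iigp1 had smaller gaps.

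**Figure D3:**
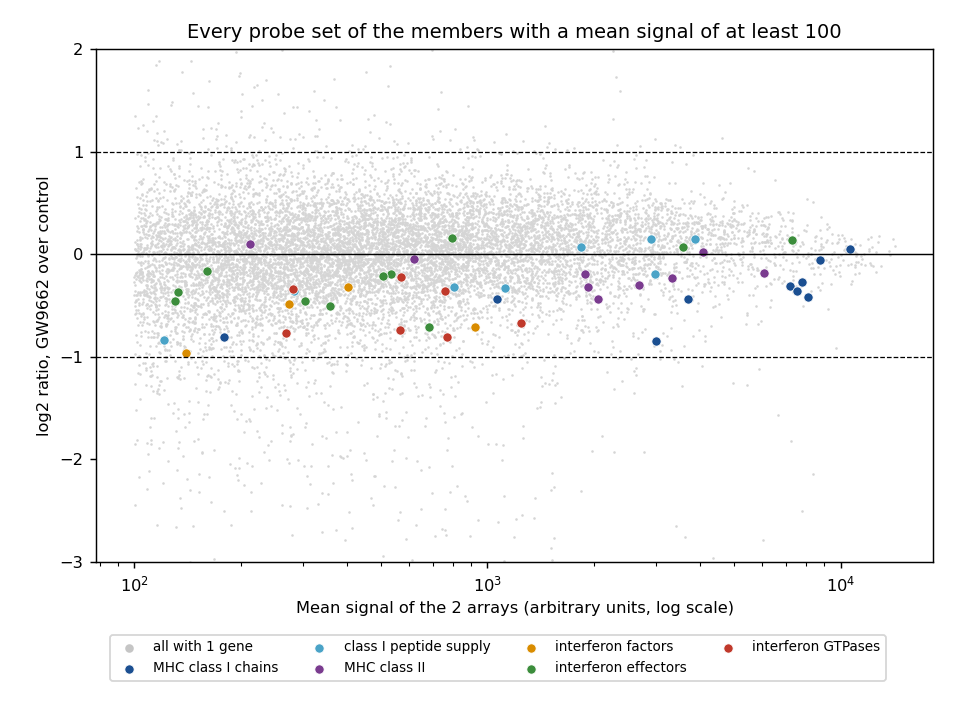
Log2 ratio of GW9662 over control against mean signal of the 2 arrays (log scale) for each member probe set with a mean signal of at least 100, coloured by role, over all probe sets with 1 gene (grey; 117 lie outside the range from -3 to 2). Of 49 member probe sets 40 lie below zero, and none reaches -1, the dashed line for a 2-fold difference.

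Set side by side, the median log2 ratio was -0.46 for the 20 measured interferon genes with 17 lower and 3 higher. It was -0.23 for the 10 class I genes with 6 lower and 4 higher, and -0.21 for the 6 class II genes with 5 lower and 1 higher. The shares lower were 85%, 60% and 83.3%, against 47.1% of all measured genes. Beyond the 0.36 spread lay 12 of 20 interferon genes, 2 of 10 class I genes and 1 of 6 class II genes, all lower. Among all measured genes, 18.4% lay beyond it lower and 18.2% higher, so the class I and class II counts were near that share. Whether the roles differ was not tested, since genes of 1 pair of arrays are not replicates.

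Further genes of the same pathways, also listed with earlier results of these data known, had medians nearer to level. Of 22 measured of 47 other interferon-stimulated genes, 12 were lower and 10 higher, with a median of -0.14. Beyond the 0.36 spread lay 9 lower and 3 higher, against 18.4% and 18.2% of all measured genes. Of 16 that reached 300 on either array, 1 was at least 2-fold lower and 0 higher, against 4.68% and 1.02% of all genes. It was the GTPase Ifi47, with 387 on the GW9662 array and 777 on the control array. Of 19 measured of 23 other presentation genes, 10 were lower and 9 higher, with a median of -0.01. Beyond the spread lay 6 lower and 2 higher. Of 17 that reached 300 on either array, 1 was at least 2-fold lower and 0 higher, against the same shares of all genes. It was Cd1d1, which presents lipids to NKT cells, with 946 on the GW9662 array and 2115.5 on the control array.

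Some members were lost to 10 probe sets annotated to several genes, whose signals cannot be given to either gene. H2-T23, the nonclassical chain Qa-1, shared a probe set with H2-T-ps that read 904 on the GW9662 array and 1590.1 on the control array, 1.76-fold lower, and a dim one at 19.5 and 1.7. H2-Q7, the nonclassical chain Qa-2, shared one with H2-Q9 that read 746 and 831, and H2-K1 shared one with H2-Q5 that read 1302 and 1651 and one with H2-D1 that read 3085.5 and 4836, 1.57-fold lower. H2-DMb1, the beta chain of DM, shared 2 with H2-DMb2 that read 267 and 314, and 384 and 511. Psme2, partner of Psme1, shared one with Psme2b that read 4202.5 and 3437 (log2 ratio 0.29), and Isg15, the ubiquitin-like modifier, shared one with Gm9706 that read 367 and 366 (0.00). Ifi44 had no probe set named here. A probe set shared by H2-D1, H2-Q2 and Gm38417 read 19.2 and 22.9. The 4 shared class I probe sets with signals above 100 were lower on the GW9662 array.

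Markers of the cell types that the tumors could hold were read on the same arrays. Counts of lower markers stand against 47.1% of all measured genes lower. Leukocyte markers summed to 3681 on the GW9662 array and 4238 on the control array (5 of 7 measured lower), with the common leukocyte antigen Ptprc at 623 and 656. Of these 7, 3 lay beyond the 0.36 spread, all lower, against 18.4% of all measured genes lower. Macrophage markers summed to 21487 and 22636 (6 of 12 lower), with Csf1r at 3007 and 3155 and Adgre1 at 364 and 330. Dendritic cell markers summed to 615 and 961 (4 of 4 lower), with Itgax at 111 and 139. The largest part of that gap lay in Cd83, at 225 and 443, which was named after its values were seen. The remaining measured markers, Itgax among them, were dimmer, with log2 ratios from -0.49 to -0.33. A further 4 of the 8 with a probe set were too dim to be measured. The sums were closer to level for macrophages than for dendritic cells, a contrast that rested largely on Cd83.

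Few lymphocyte markers were measured. B cell markers summed to 426.5 on the GW9662 array and 997 on the control array (2 of 2 lower), a gap that rested on Jchain. Jchain, of plasma cells, had 99.8 and 688, whereas Ighm, the other measured marker, was near level at 220.6 and 235.4. Of the dim markers, the defining Cd79a had 2.2 and 7.8, and Cd79b had 91.1 and 44.2. T and NK cell markers summed to 1127 and 1403 (1 of 1 lower), with the defining Cd3e at 30.7 and 39.9. The measured marker was Thy1 at 745 and 796, which made up most of both sums and was named after its values were seen. The other 12 with a probe set, Cd3e among them, were not measured. The sums and the count thus describe Thy1 and not T and NK cells as a group. Epithelial markers summed to 44339 and 43551 (4 of 9 lower).

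The adipocyte list had the lowest median ratio of the marker lists. Adipocyte markers summed to 3773 on the GW9662 array and 30755 on the control array, and 6 of 6 were lower by at least 3-fold. Endothelial markers summed to 2259 and 3498 (7 of 7 lower, median log2 ratio -0.65), with Pecam1 at 185 and 505. The part of these cell types, or of basal epithelium, in the lower interferon and class I signals was not tested.

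**Figure D4:**
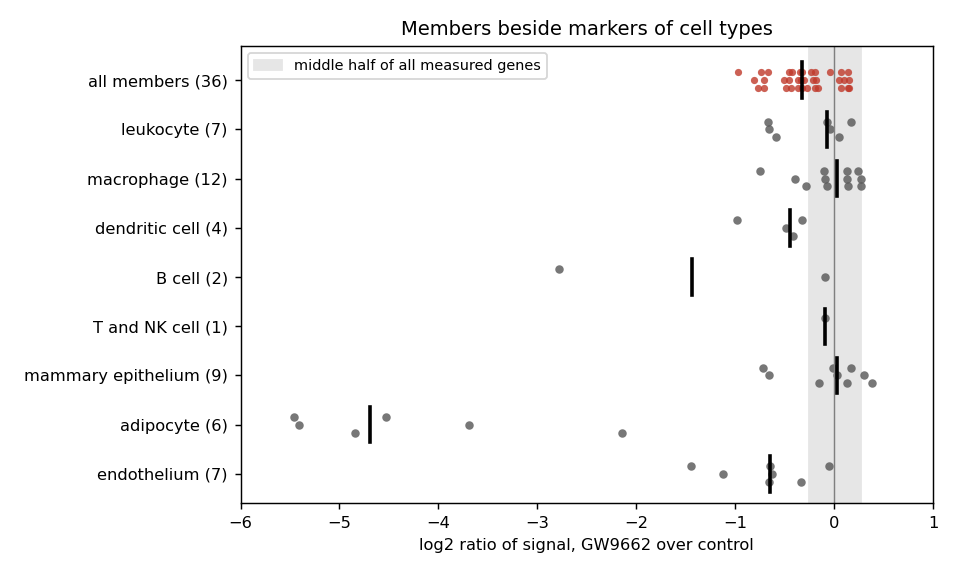
Log2 ratio of GW9662 over control for the 36 measured members (red) and for measured markers of each cell type (grey), with the median of each list (bars) and the range between the quartiles of all measured genes (band). Macrophage and epithelial medians lie at 0.03 and the adipocyte median at -4.69.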

How the data were processed

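RNA pooled from 5 mice per diet was read on 1 array each. The authors deposited a linear signal intensity per probe set, generated, per the study's methods, with GeneChip Operating Software 1.1. How probe signals were combined and scaled is not given in the sources used here. Signals were used as deposited, with 0.1 in place of the 3 zeros of the control array before log2.

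Names came from the platform annotation, with symbols updated by gene identifier. Of 22690 probe sets, 20380 had 1 gene, 691 several, 1555 none named here and 64 were controls. Median ratios used genes of mean signal 100 or more. Folds used a floor of 100, below which a fold is a bound ("at least") and with both signals below it none is given. The size thresholds were a signal of 300 on either array with 3-fold, and 2-fold and 1.5-fold beside it.

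The members and all lists were chosen with earlier results of these data known. Every member is named, and other genes only past 2-fold or as counterparts and defining markers, apart from some named after their values were seen. These are Ifnb1, Ifng, Krt5, Krt14, Krt17, Thy1, Ighm, Cd79b and Cd83. The counting rule was tested on simulated data. Other settings were centring, quantile normalization, a floor on low signals, other choices of probe set, signal minimum and fold. The number of arrays limits the precision. Computations ran in Python 3.11.15 (with numpy 2.4.6), tables in pandas 2.3.3, and plots in matplotlib 3.10.9.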

Additional observations from a re-analysis of the deposited data

How the results depend on the processing

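No paired analysis was possible because each diet has 1 array. The count of members lower on the GW9662 array was between 27 and 29 of 36 under centring, quantile normalization, a floor of 100 on low signals and the median over probe sets. Without probe sets that can read several transcripts 24 members were measured, of which 18 were lower and 6 higher. In that setting 3 of 21 were at least 1.5-fold lower, with fewer genes tested and with Iigp1 read at another probe set (log2 ratio -0.22). With the median over every probe set of a gene, 1 member, Tap1, was at least 2-fold lower, its 3 added probe sets being at 6.5 or less. At 3-fold the counts stayed at 0 with a signal minimum of 100, and also at 2.5-fold and 2-fold. Medians of the 6 roles moved by less than 0.36 in each setting. The share of all genes that were lower ran from 42.4% to 51%, so the share of members lower is read against that range. H2-DMa changed sign under quantile normalization and B2m under both medians over probe sets, one of which was added after the data were seen.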
